A study of Xenopus tropicalis with 24 samples.

Results

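The genes described here are 8 subunits of NADPH oxidases, followed through the 12 conditions of a study of tail regeneration in Xenopus tropicalis tadpoles. They were chosen by gene symbol and not by a measured value, but with earlier results of these data known. The genes cybb, cyba, ncf1, ncf4 and rac2 encode parts of the oxidase of phagocytes, and nox1, noxo1.1 and nox4 encode parts of the oxidases of other cells. They are 8 of the 26531 genes of the count table (22489 were counted in some library), and all 8 passed the filter on low counts in every comparison.

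Tails were amputated, and the tissue at the cut was taken for bulk RNA-seq at 0, 6 and 24 h post-amputation (hpa). The tissue was any regrown tail plus a short stretch of the old tail. The study asked how thyroid hormone receptors (TRs) bear on the start of regeneration before and during metamorphosis. There were 4 groups of tadpoles. TRDKO61 and TRDKO56 are TR double knockout tadpoles, TRα(-/-)β(-/-), at stage 61, the climax of metamorphosis, and at premetamorphic stage 56. WT61 and WT56 are wild-type tadpoles at the same stages, and WT61 is the group that the study calls nonregenerative. All groups were amputated, and no hormone treatment is named for any of them. The knockout tadpoles came from matings of TRα(-/-)β(+/-) frogs and were genotyped from a clipped tail tip. Each condition has 2 libraries, made from several tadpoles. How the tadpoles were divided between the libraries is not stated, so the p-values measure the spread between libraries, which may be technical.

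An NADPH oxidase passes electrons from NADPH across a membrane to oxygen, and the superoxide that forms is turned into hydrogen peroxide and other reactive oxygen species. In phagocytes the enzyme is silent until cytosolic subunits join the membrane-bound core, and it is known for the oxidative burst of neutrophils against microbes. Reactive oxygen species made at an amputation wound are also known as an early signal for regeneration of the tadpole tail.

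The 24 libraries held 3956148 to 20731438 counts each (median 12576320.5). The biological coefficient of variation between libraries was 11.8% to 20.4%, depending on the fit. Levels are given as CPM, counts relative to the library total corrected with TMM factors. The listed skeletal muscle, notochord and epidermis markers found in the table, 12, 10 and 21 genes, each had counts in some library. That is a weak check of the tissue, since myh4 and krt12.1 were at 0 in 23 libraries. The listed krt5 and krt14 were not found. Over the libraries at 0 hpa the summed CPM was 8816 to 30969 for skeletal muscle, 315 to 1637 for notochord and 10257 to 17981 for epidermis. Both TR genes still gave counts in the knockout, with means per condition of 6.02 to 9.90 CPM in TRDKO and 4.92 to 13.5 CPM in WT for thra, and 18.1 to 102 CPM in TRDKO and 6.61 to 213 CPM in WT for thrb, so the counts do not check the knockout.

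In the UCB_Xtro_10.0 assembly cybb lies on chromosome 2 from 108736759 to 108764638 and cyba on chromosome 4 from 66803147 to 66812916. The gene ncf1 lies on chromosome 2 from 100494831 to 100505455 and nox4 on the same chromosome from 167657248 to 167774921. On chromosome 4, rac2 lies from 123075197 to 123102101 and ncf4 from 123336811 to 123374837. The gene nox1 lies on chromosome 8 from 38601817 to 38617347, and noxo1.1 on chromosome 9 from 16224641 to 16233310. No exon of the 8 overlaps an exon of another gene.

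Per length of transcript, cyba was the most abundant member in all 12 conditions. Its mean ran from 55.9 TPM, counts per length relative to the library, in WT56 at 0 hpa to 370.5 TPM in TRDKO61 at 6 hpa. At 0 hpa the order in TPM was the same in TRDKO56 and WT56, cyba, rac2, nox4, cybb, ncf1, noxo1.1, ncf4 and nox1 from high to low. In TRDKO61 at 6 hpa the order was cyba, cybb, noxo1.1, rac2, ncf1, nox1, ncf4 and nox4. Over the 12 conditions, in CPM, TRDKO61 at 6 hpa had the highest mean of 7 members and the lowest mean of the eighth, nox4. Its libraries did not overlap those of the next condition in the order for cyba, cybb, rac2 and nox4. They did overlap them for ncf1, ncf4, noxo1.1 and nox1. With 2 libraries per condition, non-overlap here and below only describes the libraries, and its share over all genes was not computed. Most neighbours in the order of the 12 conditions were not separated by their spread: of 11 neighbouring pairs, the libraries did not overlap in 6 for cybb, 5 for cyba, 4 for rac2, 3 for ncf1 and nox4, 2 for ncf4 and noxo1.1 and 1 for nox1.

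All 5 phagocyte parts rose by 6 hpa in all 4 groups, and the largest rises were those of ncf1, cybb and ncf4. The gene cybb encodes gp91phox, the catalytic subunit that carries the electrons. In TRDKO61, cybb had 13.1 and 14.8 CPM at 0 hpa, 91.5 and 155 CPM at 6 hpa and 64.0 and 36.3 CPM at 24 hpa. In WT61 it had 10.3 and 7.88 CPM at 0 hpa, 30.8 and 71.5 CPM at 6 hpa and 28.4 and 30.3 CPM at 24 hpa. Both libraries at 6 hpa lay above both at 0 hpa in these groups, and the 6 hpa libraries of WT61 differed from each other by more than those of the other groups did relative to their level. In TRDKO56, cybb had 10.9 and 10.7 CPM at 0 hpa, 82.4 and 68.6 CPM at 6 hpa and 33.1 and 29.9 CPM at 24 hpa. In WT56 it had 10.4 and 9.28 CPM at 0 hpa, 43.6 and 65.7 CPM at 6 hpa and 50.4 and 63.3 CPM at 24 hpa. WT56 was the group in which the 24 hpa and 6 hpa libraries overlapped. The log2 fold change (FC) of cybb at 6 hpa over 0 hpa was 3.16 ± 0.25 (SE) in TRDKO61, 2.50 ± 0.39 in WT61, 2.79 ± 0.26 in TRDKO56 and 2.46 ± 0.42 in WT56. The adjusted p was 4.49e-05 in TRDKO61, 0.0118 in WT61, 0.00013 in TRDKO56 and 0.00737 in WT56 (edgeR's quasi-likelihood test with Benjamini-Hochberg adjustment over all genes, used throughout, n = 2 libraries each). In bulk tissue, fewer cells of a type and less RNA per cell cannot be told apart, and this holds for every level below.

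The gene cyba encodes p22phox, the membrane partner that holds the catalytic subunit and is shared with the oxidases of other cells. In TRDKO61 it had 61.6 and 68.6 CPM at 0 hpa, 200.2 and 178 CPM at 6 hpa and 89.4 and 84.3 CPM at 24 hpa. In WT61 it had 47.3 and 42.7 CPM at 0 hpa, 68.1 and 113 CPM at 6 hpa and 74.3 and 87.0 CPM at 24 hpa. The libraries of TRDKO61 at 6 hpa were the highest of all 24, and every 6 hpa library of both groups lay above its 0 hpa libraries. In TRDKO56, cyba had 45.0 and 42.8 CPM at 0 hpa, 114 and 97.3 CPM at 6 hpa and 95.7 and 66.8 CPM at 24 hpa. In WT56 it had 39.0 and 33.4 CPM at 0 hpa, 86.6 and 90.2 CPM at 6 hpa and 93.2 and 91.9 CPM at 24 hpa. Again no 6 hpa library overlapped a 0 hpa library. Of the 5 phagocyte parts cyba had the smallest rise, with a log2 FC at 6 hpa over 0 hpa of 1.56 in TRDKO61, 1.01 in WT61, 1.26 in TRDKO56 and 1.28 in WT56 (adjusted p from 0.00029 to 0.0318).

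**Figure D1:**
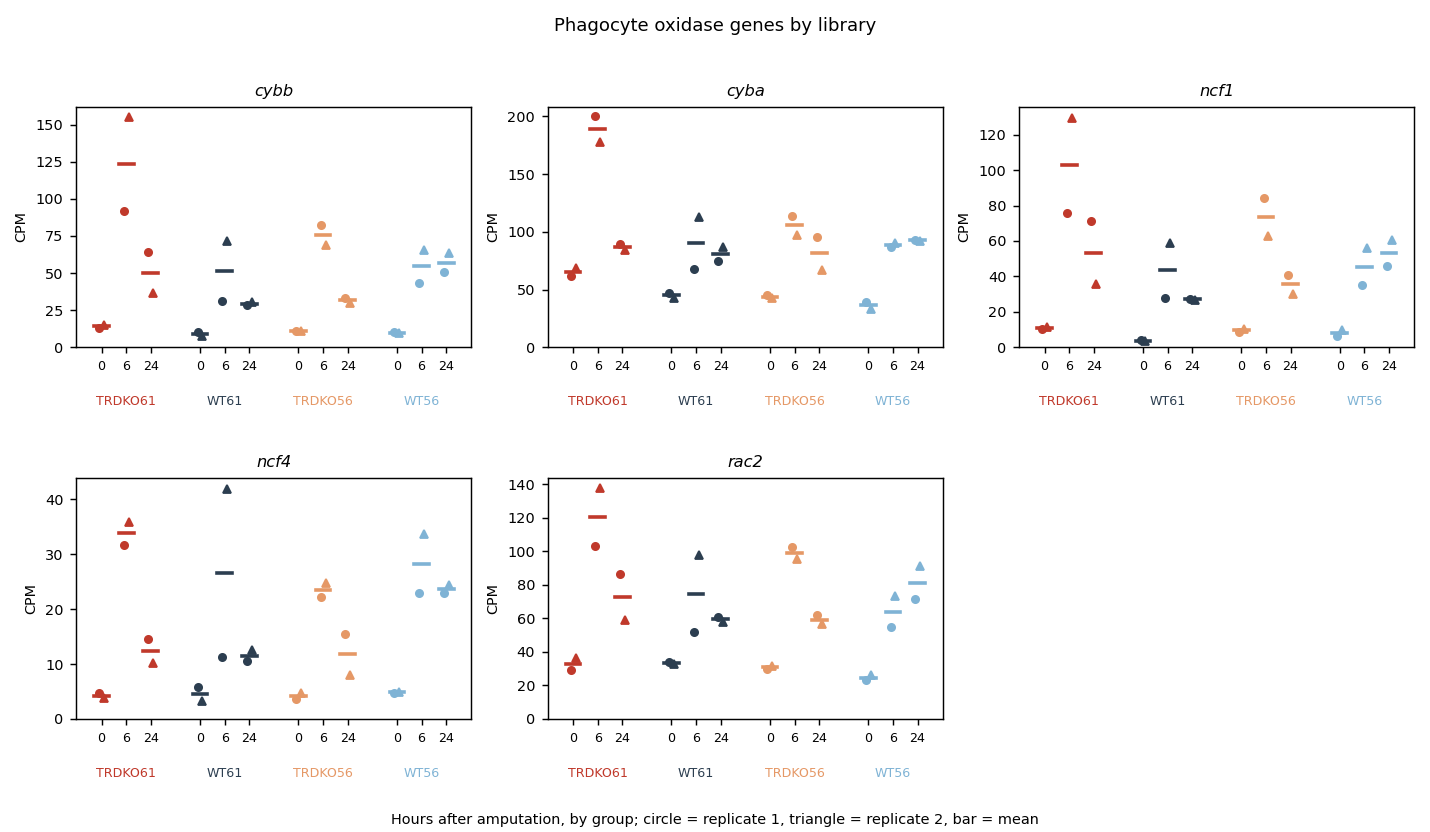
CPM of the phagocyte parts cybb, cyba, ncf1, ncf4 and rac2 at 0, 6 and 24 hpa in TRDKO61, WT61, TRDKO56 and WT56, with a circle for replicate 1, a triangle for replicate 2 and a bar for their mean. In every group both libraries at 6 hpa lie above both at 0 hpa for all of these genes.

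The gene ncf1 had the largest log2 FC of the 5 phagocyte parts at 6 hpa over 0 hpa in each group. It encodes p47phox, the organizer that brings the cytosolic parts to the membrane. It had 75.8 and 129.6 CPM at 6 hpa against 10.1 and 11.6 CPM at 0 hpa in TRDKO61. In WT61 it had 27.7 and 59.1 CPM at 6 hpa against 3.92 and 3.42 CPM at 0 hpa. The low level of WT61 at 0 hpa stood below every 0 hpa library of the other groups. In TRDKO56, ncf1 had 84.1 and 63.1 CPM at 6 hpa against 8.81 and 10.4 CPM at 0 hpa, and in WT56 35.1 and 55.8 CPM against 6.43 and 9.59 CPM. These are log2 FCs of 3.27 ± 0.27, 3.57 ± 0.42, 2.92 ± 0.28 and 2.59 ± 0.42 (SE) in TRDKO61, WT61, TRDKO56 and WT56, with adjusted p-values of 7.09e-05, 0.00599, 0.000176 and 0.0063. At 24 hpa ncf1 had 71.0 and 35.6 CPM in TRDKO61, 27.4 and 26.7 CPM in WT61, 40.6 and 30.3 CPM in TRDKO56 and 46.1 and 60.4 CPM in WT56, all above the 0 hpa libraries of the same group.

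The gene ncf4 encodes p40phox, which binds the lipid of phagosome membranes. Per length of transcript (TPM) its mean was the lowest of the 5 phagocyte parts in all 12 conditions. It had 3.24 to 5.74 CPM over the 8 libraries at 0 hpa. At 6 hpa it had 31.7 and 35.8 CPM in TRDKO61, 11.3 and 41.9 CPM in WT61, 22.3 and 24.8 CPM in TRDKO56 and 22.99 and 33.6 CPM in WT56. No 6 hpa library overlapped a 0 hpa library, and WT61 was again the group with the widest gap between its libraries. The log2 FC was 2.99 in TRDKO61, 2.596 in WT61, 2.46 in TRDKO56 and 2.56 in WT56 (adjusted p from 2.67e-05 to 0.0348). At 24 hpa ncf4 had 14.5 and 10.2 CPM in TRDKO61, 10.6 and 12.5 CPM in WT61, 15.5 and 8.02 CPM in TRDKO56 and 23 and 24.5 CPM in WT56.

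The gene rac2 encodes the GTPase of blood cells that switches the assembled oxidase on, and it also serves other processes of leukocytes such as migration. At 6 hpa it had 103 and 138 CPM in TRDKO61, 52.0 and 97.7 CPM in WT61, 103 and 95.3 CPM in TRDKO56 and 55.1 and 73.1 CPM in WT56. At 0 hpa its libraries lay between 23.2 and 36.7 CPM over the 4 groups, below every 6 hpa library. The log2 FC was 1.90 in TRDKO61, 1.17 in WT61, 1.67 in TRDKO56 and 1.40 in WT56 (adjusted p from 0.000208 to 0.0411).

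With nox1 and nox4 the count of members called at 6 hpa against 0 hpa was 7 of 8 in TRDKO61, 5 in WT61, 6 in TRDKO56 and 6 in WT56, where a call is an absolute log2 FC over 1 with an adjusted p under 0.05. The share of all tested genes called in the same comparison was 8.98% in TRDKO61, 3.97% in WT61, 9.03% in TRDKO56 and 9.2% in WT56, below that of the members. This excess is no independent support, since the members were chosen with earlier results known. The phagocyte parts also moved together (Pearson r of 0.866 to 0.977 between pairs over 24 libraries), so their calls are not separate results. The median log2 FC of the 5 phagocyte parts was 2.99 in TRDKO61, 2.50 in WT61, 2.46 in TRDKO56 and 2.46 in WT56, while that of all genes tested lay between -0.04 and 0.00. The 5 calls of TRDKO61 and the 5 of TRDKO56 held with any 1 library left out. In WT61, leaving out a 0 hpa library left 1 call (replicate 1) or none (replicate 2), and leaving out a 6 hpa library left all 5 (replicate 1) or 2 (replicate 2). Without replicate 2 at 6 hpa the log2 FCs in WT61 were 0.58 for cyba, 0.62 for rac2, 1.75 for cybb, 2.90 for ncf1 and 1.36 for ncf4, and without replicate 1 at 6 hpa that of ncf4 was 3.25. In WT56 none was called without either 0 hpa library, 4 without replicate 1 at 6 hpa and 2 without replicate 2 at 6 hpa, and their log2 FCs ran from 1.17 to 2.89 over these fits.

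From 6 to 24 hpa few of the phagocyte parts passed the test, and those that did were falls in the knockout. In TRDKO61 cyba fell, with 89.4 and 84.3 CPM at 24 hpa against 200.2 and 178 CPM at 6 hpa (log2 FC -1.12 ± 0.19, adjusted p = 0.0255), and so did ncf4 (log2 FC -1.45 ± 0.29, adjusted p = 0.038). In TRDKO56 cybb fell (log2 FC -1.29 ± 0.31, adjusted p = 0.0226) and ncf4 fell (log2 FC -1.02 ± 0.30, adjusted p = 0.0403). For cybb in TRDKO61 the log2 FC was about as large, -1.30, with an adjusted p of 0.056, and DESeq2 called it. None of the phagocyte parts was called in WT61 or in WT56 at this step, where the log2 FC of cybb was -0.80 in WT61. These falls are not shown to differ between the genotypes. The difference of the changes between TRDKO61 and WT61 was called for no member, and that between TRDKO56 and WT56 was not tested. The median log2 FC of the 5 was -1.12 in TRDKO61, -0.67 in WT61, -1.02 in TRDKO56 and 0.04 in WT56. Both calls of TRDKO61 were lost whichever of its 4 libraries was left out (adjusted p from 0.0727 to 0.136), and so was cybb in TRDKO56 (adjusted p from 0.0802 to 0.129). In TRDKO56, ncf4 remained called without replicate 1 at 24 hpa alone, and its log2 FC moved between -1.57 in that fit and -0.62 with replicate 2 at 24 hpa left out.

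Over all 8 members, 5 were called at 24 hpa against 6 hpa in TRDKO61 (background 2.85%), none in WT61 (1.31%), 4 in TRDKO56 (12.5%) and 1 in WT56 (13.2%). In WT61, where edgeR called no member, 1 had an unadjusted p under 0.05, namely nox4, and DESeq2 called none. In WT56 the share of members called, 1 of 8, was at the background.

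At 24 hpa against 0 hpa the phagocyte parts were still high. The calls among the 5, all rises, were cybb, ncf1, ncf4 and rac2 in TRDKO61, cybb, ncf1 and ncf4 in WT61, the same 3 in TRDKO56, and all 5 in WT56. The log2 FC of cybb was 1.85 in TRDKO61, 1.68 in WT61, 1.49 in TRDKO56 and 2.48 in WT56 (adjusted p from 1.04e-06 to 0.00344). That of ncf1 was 2.31 in TRDKO61, 2.87 in WT61, 1.83 in TRDKO56 and 2.81 in WT56 (adjusted p from 1.06e-06 to 0.00542). The cyba libraries of TRDKO61 did not overlap either, but the log2 FC was 0.42 with an adjusted p of 0.149. Counted over the 8 members, 4 were called in TRDKO61 (background 5.09%), 4 in WT61 (8.65%), 5 in TRDKO56 (14.6%) and 6 in WT56 (18.7%). The 5 phagocyte calls of WT56 held with any 1 library left out. In TRDKO61, 1 of the 4 phagocyte calls was left without replicate 1 at 0 hpa, 2 without replicate 2 at 0 hpa or replicate 1 at 24 hpa (where the log2 FC of ncf1 was 1.71), and all 4 without replicate 2 at 24 hpa. In WT61, ncf4 was lost without replicate 2 at 0 hpa (log2 FC 0.97), and in TRDKO56, ncf4 was lost without either 0 hpa library or without replicate 1 at 24 hpa (log2 FC 0.87).

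The difference of these changes between stages was tested as an interaction. For rac2 the change at 24 hpa over 0 hpa was smaller in WT61 than in WT56. The gene had 61.1 and 57.9 CPM at 24 hpa against 34.2 and 32.6 CPM at 0 hpa in WT61. In WT56 it had 71.6 and 91.1 CPM at 24 hpa against 23.2 and 26.0 CPM at 0 hpa. The difference of the changes was -0.90 ± 0.20 (SE, log2) with an adjusted p of 0.0226, and it made rac2 the 1 member of 8 called there (background 5.75%). The call was lost without either 0 hpa library of WT56, replicate 2 of WT56 at 24 hpa or replicate 1 of WT61 at 0 hpa (log2 difference from -1.11 to -0.75 over the 8 fits). It was also lost in 1 fit to all 24 libraries. By edgeR 5 members had an unadjusted p under 0.05 in this test, namely cyba, cybb, ncf4, rac2 and noxo1.1. So did 3747 of the 15992 genes tested. DESeq2 called 2 members, noxo1.1 and rac2. The differences of the 5 phagocyte parts ran from -0.90 for rac2 to 0.06 for ncf1, with a median of -0.80, so the smaller change was not particular to rac2. No member was called for the difference between WT61 and WT56 at 6 hpa over 0 hpa (background 0.0251%) or at 24 hpa over 6 hpa (background 0.081%). By edgeR 1 member, noxo1.1, had an unadjusted p under 0.05 in the first of these and none in the second, and DESeq2 called none in either.

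Markers of leukocytes moved with the phagocyte parts. A list of 14 leukocyte markers, such as ptprc, coro1a and itgb2, had all 14 in the table and none at 0 in every library. These genes need not be equally active in every type of leukocyte. Their summed CPM was 197.6 to 487 over the 8 libraries at 0 hpa, 375 to 1099.8 at 6 hpa and 444 to 719.6 at 24 hpa. In TRDKO61 the sum was 266 and 304 CPM at 0 hpa, 819 and 1099.8 CPM at 6 hpa and 632 and 444 CPM at 24 hpa. In WT61 it was 487 and 426 CPM at 0 hpa, 582 and 885 CPM at 6 hpa and 637 and 628 CPM at 24 hpa. WT61 thus had the highest sums of all groups at 0 hpa, while TRDKO61 had the highest sums of the phagocyte parts there. In TRDKO56 the sum was 249 and 260.2 CPM at 0 hpa, 632 and 621 CPM at 6 hpa and 537 and 460.3 CPM at 24 hpa. In WT56 it was 208 and 197.6 CPM at 0 hpa, 375 and 497 CPM at 6 hpa and 570.04 and 719.6 CPM at 24 hpa. At 6 hpa against 0 hpa, 14 of the 14 genes had a higher mean in TRDKO61, 13 in WT61, 14 in TRDKO56 and 13 in WT56. At the same step 9 neutrophil and granulocyte genes, among them csf3r, mpo and mmp9.1, had a log2 ratio of summed CPM of 2.90 in TRDKO61, 2.18 in WT61, 2.52 in TRDKO56 and 2.31 in WT56. Of these 9 genes, 9, 9, 9 and 8 had a higher mean in that order of groups. The sum leans on mmp9.1, whose condition means ran from 53.6 to 1247 CPM. For 6 macrophage genes in the table the log2 ratio was 0.23, 0.25, -0.06 and 0.01, with 4, 4, 2 and 2 of the 6 higher. The part of leukocyte number in the results for the phagocyte parts was not tested.

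The summed CPM of the 5 phagocyte parts divided by the leukocyte sum set WT61 apart. At 0 hpa this ratio was 0.209 and 0.211 in WT61, against 0.386 to 0.447 in the libraries of the other groups. At 6 hpa it was 0.326 and 0.433 in WT61, against 0.562 to 0.648 elsewhere. At 24 hpa it was 0.317 and 0.341 in WT61, against 0.417 to 0.515 elsewhere. WT61 did not overlap the other groups at any time, and these ratios were formed after the values were seen and carry no test. The sum of the 5 parts includes cyba, which is shared with the oxidases of other cells. In replicate 1 at 0 hpa cyba gave 61.6 of 119 CPM in TRDKO61 and 47.3 of 101 CPM in WT61. The ratio is therefore not a level of the phagocyte oxidase alone. The macrophage sum was also highest in WT61, with means of 1056, 1259 and 1019 CPM at 0, 6 and 24 hpa. This sum covers 6 of 11 listed genes and leans on mafb. The condition means of mafb ran from 84.7 to 680 CPM, while csf1r, the next highest, reached 247 CPM. The sum is therefore not a measure of macrophage number. In the other groups its means ran from 411 to 725 CPM. The neutrophil and granulocyte sum at 0 hpa had a mean of 271 CPM in WT61 and 241 to 355 CPM elsewhere. The part of the mix of leukocytes in the ratio was not tested.

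**Figure D2:**
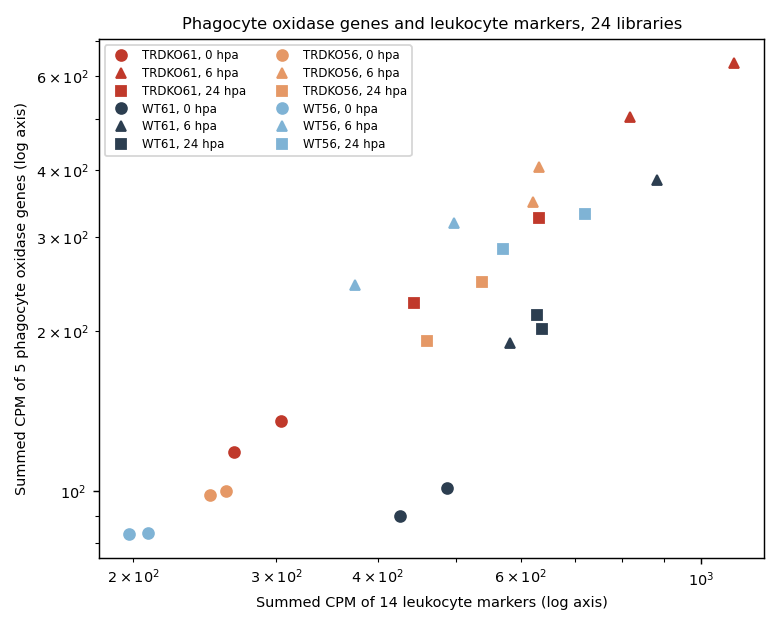
Summed CPM of the 5 phagocyte parts against the summed CPM of 14 leukocyte genes in the 24 libraries, both on log axes, with colours for the groups and symbols for 0, 6 and 24 hpa. At a given leukocyte sum the WT61 libraries lie below those of the other groups, with ratios of 0.209 and 0.211 at 0 hpa.

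Among the parts used outside phagocytes, noxo1.1 changed most. It encodes a NOXO1 protein, the organizer that in mammals keeps NOX1 active, in place of p47phox. In TRDKO61 it had 37.0 and 9.69 CPM at 0 hpa, 261 and 64.8 CPM at 6 hpa and 3.74 and 14.5 CPM at 24 hpa. In TRDKO56 it had 2.36 and 9.42 CPM at 0 hpa, 1.21 and 0.882 CPM at 6 hpa and 81.0 and 68.5 CPM at 24 hpa. The knockout groups thus had their peaks at different times, with TRDKO61 highest at 6 hpa and TRDKO56 highest at 24 hpa. In WT61 the libraries had 1.24 and 1.97 CPM at 0 hpa, 2.99 and 21 CPM at 6 hpa and 8.66 and 21.8 CPM at 24 hpa. In WT56 they had 8.75 and 7.73 CPM at 0 hpa, 3.68 and 0.695 CPM at 6 hpa and 14.95 and 7.58 CPM at 24 hpa. The 2 libraries of a condition lay far apart in each group at some time, and TRDKO61 at 6 hpa overlapped TRDKO56 at 24 hpa, the next condition in order of level.

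At 24 hpa against 6 hpa, noxo1.1 fell in TRDKO61 (log2 FC -4.17 ± 0.78, adjusted p = 0.0365) and rose in TRDKO56 (log2 FC 6.12 ± 0.99, adjusted p = 0.00698). The difference of these changes was -10.29 ± 1.26 (adjusted p = 0.024), which made noxo1.1 the 1 member called in that test (background 1%). It was called with any TRDKO61 library left out and lost with any TRDKO56 library left out (adjusted p up to 0.091), with a log2 difference from -11.57 to -8.97 over the 8 fits. It was lost as well with no filter on low counts. The fall in TRDKO61 was called without replicate 2 at 24 hpa and lost without any other library of that comparison, with a log2 FC of -2.84 to -5.42. The rise in TRDKO56 was lost without replicate 2 at 6 hpa alone (adjusted p = 0.062). At 6 hpa over 0 hpa the changes were 2.80 in TRDKO61 (adjusted p = 0.0624), 2.84 in WT61 (0.0942), -2.56 in TRDKO56 (0.207) and -1.92 in WT56 (0.192) on the log2 scale, none of them called. The difference of the changes between TRDKO61 and TRDKO56 at that step was 5.36 (adjusted p = 0.338), and no member was called in it (background 0.0312%), with 1 member under an unadjusted p of 0.05 and none by DESeq2. At 24 hpa over 0 hpa noxo1.1 rose in WT61 (log2 FC 3.12, adjusted p = 0.0127) and in TRDKO56 (log2 FC 3.54, adjusted p = 0.0278). The call of WT61 was lost without either 0 hpa library (log2 FC 2.33 to 3.68 with a library left out), and that of TRDKO56 without any 1 of its 4 libraries (log2 FC 2.95 to 4.93). No member was called for the difference of the changes between TRDKO61 and TRDKO56 at 24 hpa over 0 hpa (background 1.72%), where 2 had an unadjusted p under 0.05 and the same 2, noxo1.1 and nox1, were called by DESeq2.

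The gene noxo1, a second NOXO1 gene on chromosome 9 from 16879417 to 16924892, was not among the 8 but had a pattern close to that of noxo1.1. In TRDKO61 it had 29.3 and 28.5 CPM at 0 hpa, 259 and 91.6 CPM at 6 hpa and 12.5 and 18.5 CPM at 24 hpa. In TRDKO56 it had 5.34 and 8.23 CPM at 0 hpa, 3.197 and 6.53 CPM at 6 hpa and 36.8 and 18.8 CPM at 24 hpa. It rose at 6 hpa over 0 hpa in TRDKO61 (log2 FC 2.62), fell at 24 hpa over 6 hpa in TRDKO61 (-3.50) and rose at that step in TRDKO56 (2.49), and the difference of the last pair was called (-5.99). Of 13633 genes compared over the 24 libraries, noxo1 had the pattern most like noxo1.1 (Pearson r = 0.893 on log2(CPM + 1)), followed by phyhdla.2 (0.884) and tspan1 (0.845). The libraries share depth and composition, so these are descriptions. How reads that map to both NOXO1 genes were counted is not given in the sources used here, and their separate levels are uncertain to that extent.

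**Figure D3:**
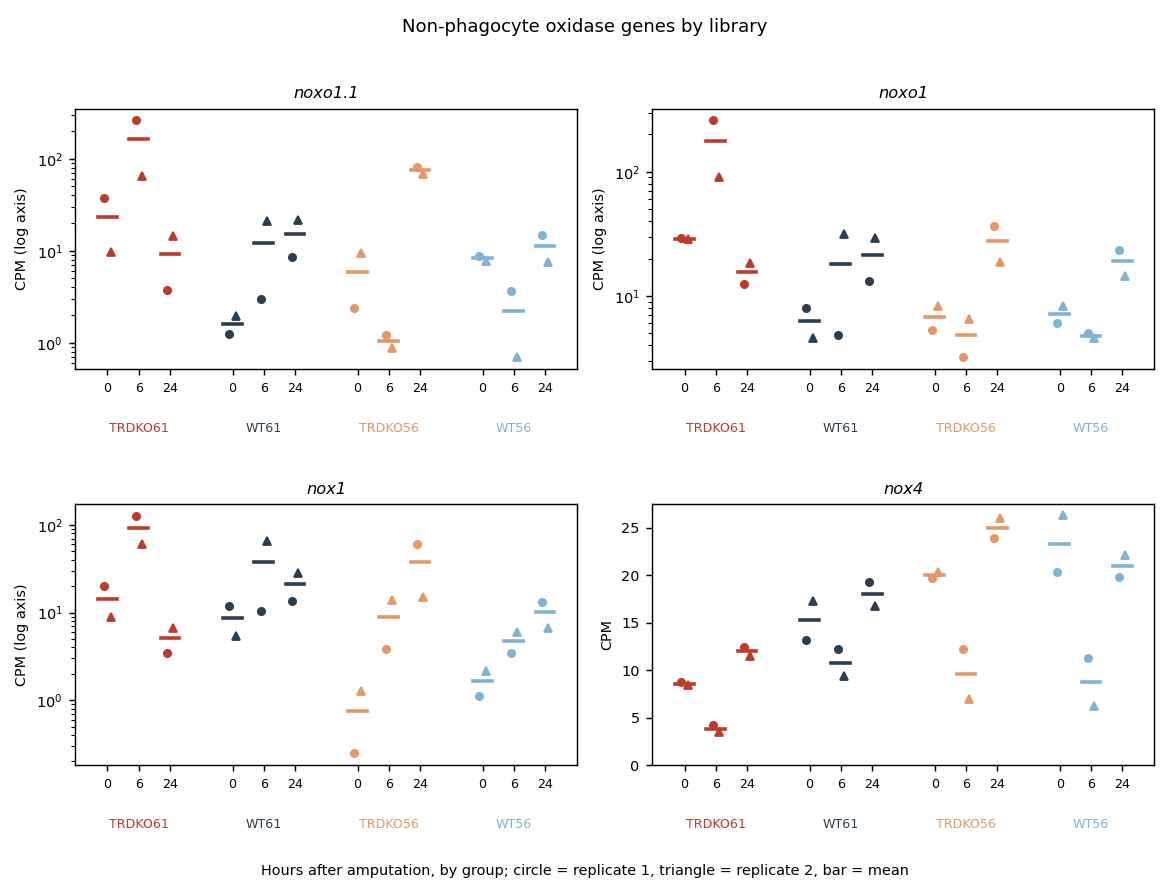
CPM of noxo1.1, noxo1 and nox1 (log axes) and of nox4 (linear axis) at 0, 6 and 24 hpa in TRDKO61, WT61, TRDKO56 and WT56, with a circle for replicate 1, a triangle for replicate 2 and a bar for their mean. For noxo1.1 TRDKO61 is highest at 6 hpa and TRDKO56 at 24 hpa, and nox4 is lowest at 6 hpa in every group.

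The gene nox1 encodes the catalytic subunit that NOXO1 serves, known in mammals from epithelia such as that of the colon. In TRDKO61 it had 20.002 and 8.87 CPM at 0 hpa, 126 and 60.3 CPM at 6 hpa and 3.49 and 6.70 CPM at 24 hpa. In WT61 it had 11.8 and 5.39 CPM at 0 hpa, 10.4 and 65.6 CPM at 6 hpa and 13.4 and 28.6 CPM at 24 hpa. Only in TRDKO61 of these groups did the 6 hpa libraries lie apart from those at 0 hpa. In TRDKO56, nox1 had 0.248 and 1.27 CPM at 0 hpa, 3.89 and 13.8 CPM at 6 hpa and 60.1 and 15.2 CPM at 24 hpa. In WT56 it had 1.11 and 2.16 CPM at 0 hpa, 3.48 and 6.05 CPM at 6 hpa and 13.4 and 6.68 CPM at 24 hpa. Both stage 56 groups thus had successively higher libraries at 0, 6 and 24 hpa, with no overlap between neighbouring times. However, edgeR called nox1 at none of these neighbouring steps, and DESeq2 called it in TRDKO56 at 6 hpa over 0 hpa only. In WT56 neither step had an unadjusted p under 0.05 by edgeR.

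In TRDKO61, nox1 rose at 6 hpa over 0 hpa (log2 FC 2.68 ± 0.64, adjusted p = 0.0322) and fell at 24 hpa against 6 hpa (log2 FC -4.19 ± 0.82, adjusted p = 0.0394). Both calls were lost whichever library was left out, with adjusted p-values of 0.0551 to 0.218 for the rise (log2 FC 2.06 to 3.41) and 0.0876 to 0.186 for the fall (log2 FC -4.71 to -3.57). At 24 hpa over 0 hpa nox1 rose in TRDKO56 (log2 FC 5.42 ± 1.04, adjusted p = 0.00969), a call lost without replicate 1 at 0 hpa alone (adjusted p = 0.0687) and with a log2 FC of 4.13 without replicate 1 at 24 hpa to 7.16 without replicate 2 at 0 hpa, and in WT56 (log2 FC 2.80 ± 0.90, adjusted p = 0.0484), a call lost without any 1 library (log2 FC 2.16 to 3.26). At 24 hpa over 6 hpa in TRDKO56 its log2 FC of 2.07 was not called (adjusted p = 0.0918). The difference of the changes between TRDKO61 and TRDKO56 at 24 hpa over 6 hpa was -6.27 (adjusted p = 0.0539), the same sign as that of noxo1.1. The genes most like nox1 over the 24 libraries were tank (r = 0.91) and tnip1 (0.909), which in mammals restrain inflammatory signalling, and litafd (0.888).

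The gene nox4 encodes an oxidase that works with p22phox alone and mainly gives hydrogen peroxide, known in mammals from kidney, vessels and fibroblasts. Its libraries at 6 hpa lay below those at 0 hpa in all 4 groups, while those of the phagocyte parts lay above. In TRDKO61 it had 8.73 and 8.42 CPM at 0 hpa, 4.24 and 3.44 CPM at 6 hpa and 12.5 and 11.4 CPM at 24 hpa. In WT61 it had 13.2 and 17.3 CPM at 0 hpa, 12.2 and 9.34 CPM at 6 hpa and 19.3 and 16.7 CPM at 24 hpa. In both groups the 6 hpa libraries lay below those of the other times. In TRDKO56, nox4 had 19.7 and 20.4 CPM at 0 hpa, 12.2 and 6.97 CPM at 6 hpa and 23.9 and 26.0 CPM at 24 hpa. In WT56 it had 20.3 and 26.3 CPM at 0 hpa, 11.2 and 6.25 CPM at 6 hpa and 19.8 and 22.1 CPM at 24 hpa.

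At 6 hpa against 0 hpa nox4 fell in TRDKO61 (log2 FC -1.14 ± 0.28, adjusted p = 0.0243), TRDKO56 (-1.08 ± 0.27, 0.0239) and WT56 (-1.39 ± 0.30, 0.0155), while the log2 FC in WT61 was -0.50 (adjusted p = 0.301). At 24 hpa against 6 hpa it rose in TRDKO61 (1.65 ± 0.28, 0.0241), TRDKO56 (1.35 ± 0.26, 0.00999) and WT56 (1.24 ± 0.27, 0.0137), with 0.74 in WT61 (0.182). No difference of these changes between groups was called, and that between TRDKO56 and WT56 was not tested. Each of the 3 falls was called in only 1 of 4 fits with a library left out, with log2 FCs of -0.99 to -1.29 in TRDKO61, -0.73 to -1.53 in TRDKO56 and -1.03 to -1.86 in WT56. The rise in TRDKO61 was called without replicate 2 at 24 hpa alone, that in TRDKO56 was lost without replicate 2 at 24 hpa, and that in WT56 without replicate 2 at 24 hpa or at 6 hpa. The genes most like nox4 were coro2a (r = 0.953), agrn (0.948), which encodes the basement membrane protein agrin, and golim4 (0.934). Summed markers of fibroblasts, all 9 listed in the table and none at 0 in every library, had a log2 ratio at 6 hpa over 0 hpa of -1.05 in TRDKO61, -0.40 in WT61, -0.85 in TRDKO56 and -0.60 in WT56, over a range of 2892 to 12032 CPM at 6 hpa and 6549 to 18368 CPM at 0 hpa. At that step 2 of the 9 genes had a higher mean in TRDKO61, 4 in WT61, 3 in TRDKO56 and 4 in WT56. The fibroblast sum leans on col1a1 and col1a2, with highest condition means of 7088 and 5458 CPM, while lum, the next highest, reached 2419 CPM. It is therefore not a measure of fibroblast number. The part of fibroblasts in the levels of nox4 was not tested.

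**Figure D4:**
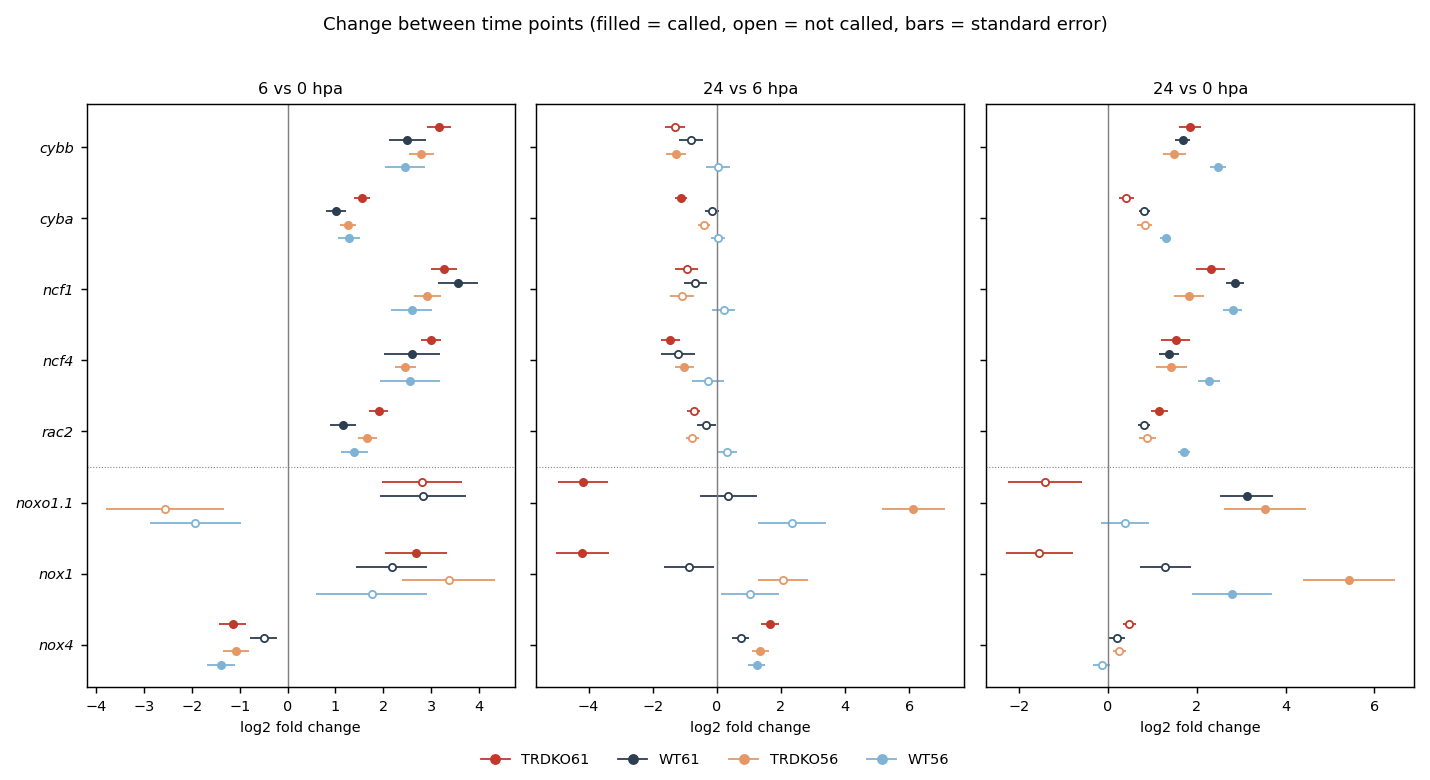
Log2 FC of the 8 members between pairs of time points in TRDKO61, WT61, TRDKO56 and WT56, with bars of 1 SE and filled symbols for calls. The phagocyte parts lie above 0 at 6 hpa over 0 hpa in every group, nox4 lies below 0, and noxo1.1 at 24 hpa over 6 hpa is -4.17 in TRDKO61 and 6.12 in TRDKO56.

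Stage was compared within each genotype at a fixed time. At 0 hpa nox1 was higher at stage 61 in both genotypes. It had 20.002 and 8.87 CPM in TRDKO61 against 0.248 and 1.27 CPM in TRDKO56 (log2 FC 4.10 ± 0.69, adjusted p = 0.00415), and 11.8 and 5.39 CPM in WT61 against 1.11 and 2.16 CPM in WT56 (log2 FC 2.55 ± 0.74, adjusted p = 0.036). The first call held with any library left out, with a log2 FC of 3.37 without replicate 1 of TRDKO61 to 5.81 without replicate 2 of TRDKO56. The second was lost without either WT56 library or replicate 1 of WT61 (adjusted p up to 0.288, log2 FC 1.92 to 3.07). In TRDKO56, replicate 1 had 2 counts of nox1. The gene nox4 had 8.73 and 8.42 CPM in TRDKO61 against 19.7 and 20.4 CPM in TRDKO56 (log2 FC -1.23 ± 0.19, adjusted p = 0.00068), and this held with any library left out. The gene ncf1 had 3.92 and 3.42 CPM in WT61 against 6.43 and 9.59 CPM in WT56 (log2 FC -1.07 ± 0.27, adjusted p = 0.011), a call lost without replicate 2 of either group. The members called at 0 hpa were 2 of 8 in TRDKO (background 10.3%) and 2 of 8 in WT (background 12%).

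At 6 hpa noxo1.1 was the 1 member called between the stages of the knockout, with 261 and 64.8 CPM in TRDKO61 against 1.21 and 0.882 CPM in TRDKO56 (log2 FC 7.26 ± 1.24, adjusted p = 0.0183, background 5.48%). The call was lost without either TRDKO56 library (adjusted p up to 0.145), and the log2 FC was 5.94 to 7.95 with a library left out. For nox1 the libraries did not overlap either, and the log2 FC was 3.39 with an adjusted p of 0.0632. No member was called between WT61 and WT56 at 6 hpa (background 13.5%), where nox1 alone had an unadjusted p under 0.05 by edgeR and was called by DESeq2.

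At 24 hpa the order had turned for noxo1.1 and nox1 in the knockout. The gene noxo1.1 had 3.74 and 14.5 CPM in TRDKO61 against 81.0 and 68.5 CPM in TRDKO56 (log2 FC -3.02 ± 0.68, adjusted p = 0.0307). The gene nox1 had 3.49 and 6.70 CPM against 60.1 and 15.2 CPM (log2 FC -2.87 ± 0.77, adjusted p = 0.049), and nox4 had 12.5 and 11.4 CPM against 23.9 and 26.0 CPM (log2 FC -1.02 ± 0.14, adjusted p = 0.00268). These 3 of 8 members were called (background 7.81%). Each of the calls of noxo1.1 and nox1 was kept in 1 of 4 fits with a library left out, with log2 FCs of -2.33 to -4.27 and -1.55 to -3.53, and that of nox4 in 2 of 4, with -0.95 to -1.08. In WT, ncf4 was the 1 member called at 24 hpa (background 10.4%), with 10.6 and 12.5 CPM in WT61 against 23 and 24.5 CPM in WT56 (log2 FC -1.05 ± 0.30, adjusted p = 0.0338), and the call was lost without any 1 library (adjusted p from 0.0888 to 0.173).

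**Figure D5:**
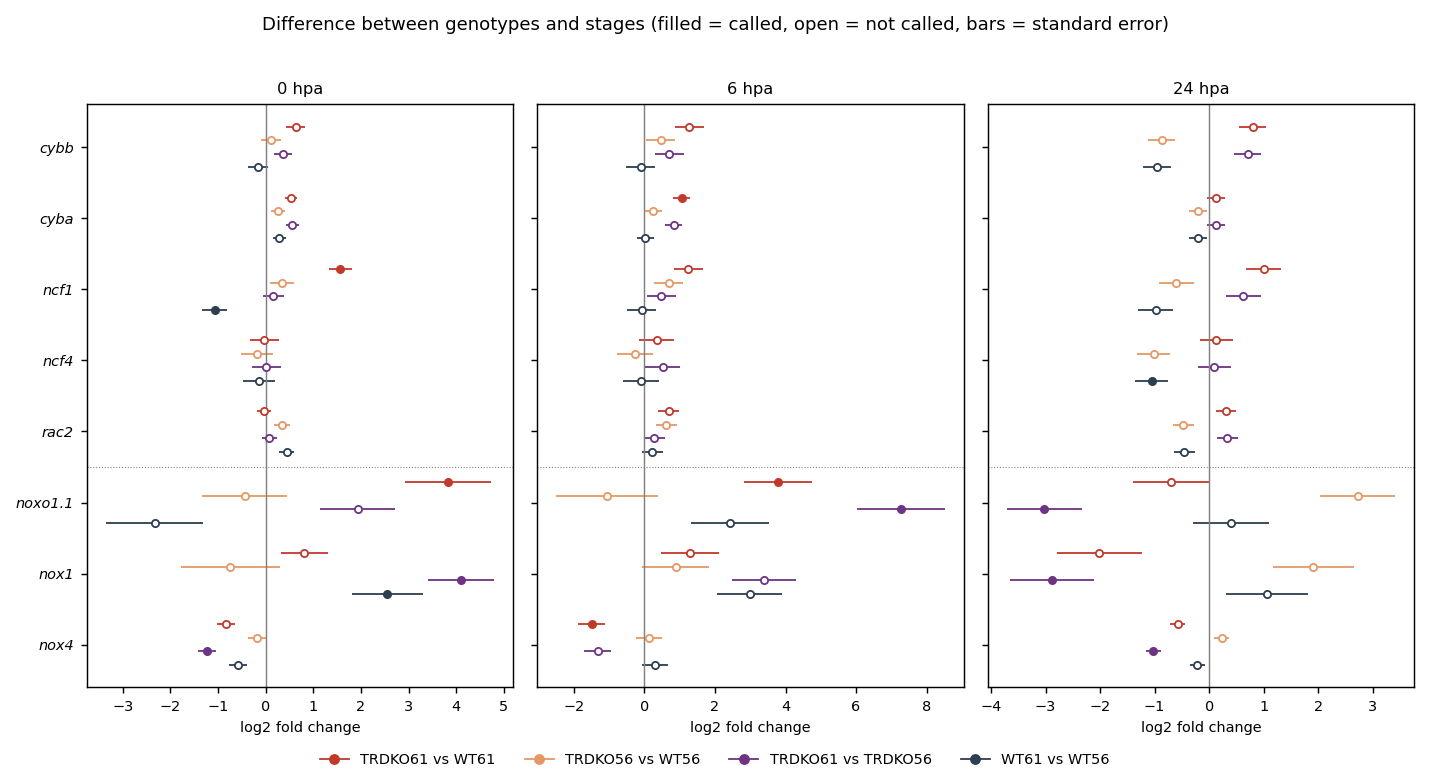
Log2 FC of the 8 members in TRDKO61 over WT61, TRDKO56 over WT56, TRDKO61 over TRDKO56 and WT61 over WT56 at 0, 6 and 24 hpa, with bars of 1 SE and filled symbols for calls. For noxo1.1 TRDKO61 against TRDKO56 is 7.26 at 6 hpa and -3.02 at 24 hpa, and TRDKO56 against WT56 holds no call.

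Genotype was compared within each stage. Frogs that are both TRα(-/-) have no wild-type offspring, so the WT tadpoles came from other matings. Genotype and parentage therefore cannot be told apart in these comparisons. Whether WT tadpoles also had a tail tip clipped is not stated. At stage 61 and 0 hpa, ncf1 had 10.1 and 11.6 CPM in TRDKO61 against 3.92 and 3.42 CPM in WT61 (log2 FC 1.56 ± 0.24, adjusted p = 0.000651), and this held with any library left out. The leukocyte sum was 266 and 304 CPM in TRDKO61 against 487 and 426 CPM in WT61, the other direction. The macrophage sum, which leans on mafb, was 600 and 633 CPM against 1123 and 989 CPM and also went the other way. The neutrophil and granulocyte sum, 359 and 351 CPM against 301 and 241 CPM, went the same way as ncf1. That sum leans on csf3r, whose condition means ran from 115 to 489 CPM. Of its other genes, mpo overlapped, with 25.4 and 38.7 CPM in TRDKO61 against 40.8 and 22.6 CPM in WT61. The gene epx went with the sum, with 28.2 and 29.3 CPM against 24.4 and 18.4 CPM. The part of leukocytes, macrophages or granulocytes in the level of ncf1 was not tested. The gene noxo1.1 had 37.0 and 9.69 CPM in TRDKO61 against 1.24 and 1.97 CPM in WT61 (log2 FC 3.82 ± 0.90, adjusted p = 0.0265), a call lost without either WT61 library (adjusted p up to 0.12) and with a log2 FC of 2.51 to 4.45 over the 4 fits. These were the 2 of 8 members called at 0 hpa (background 11.7%).

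At 6 hpa, 3 of 8 members were called between TRDKO61 and WT61 (background 6.52%). The gene cyba had 200.2 and 178 CPM in TRDKO61 against 68.1 and 113 CPM in WT61 (log2 FC 1.06 ± 0.24, adjusted p = 0.0292). The gene noxo1.1 had 261 and 64.8 CPM against 2.99 and 21 CPM (log2 FC 3.79 ± 0.97, adjusted p = 0.0476). The gene nox4 was lower, with 4.24 and 3.44 CPM in TRDKO61 against 12.2 and 9.34 CPM in WT61 (log2 FC -1.50 ± 0.38, adjusted p = 0.0414). None of these groups overlapped, and the leukocyte sum was 819 and 1099.8 CPM in TRDKO61 against 582 and 885 CPM in WT61. The call of cyba remained without replicate 2 of WT61 alone and that of noxo1.1 likewise, and that of nox4 was lost without any 1 library (adjusted p from 0.0636 to 0.159). The log2 FC of cyba was 0.73 to 1.44 and that of noxo1.1 2.44 to 5.73 over these fits. With all libraries, 6 members had an unadjusted p under 0.05 by edgeR, the 3 called with cybb, ncf1 and rac2. So did 4336 of the 15993 genes tested. DESeq2 called 5, the same 3 with cybb and ncf1. The log2 FCs of all 5 phagocyte parts were positive, from 0.35 for ncf4 to 1.27 for cybb.

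At 24 hpa no member was called between TRDKO61 and WT61 (background 5.2%), where 4 had an unadjusted p under 0.05 by edgeR, namely cybb, ncf1, nox1 and nox4, and DESeq2 called none. Between TRDKO56 and WT56 no member was called at 0 hpa (background 3.05%), 6 hpa (0.206%) or 24 hpa (1.59%). By edgeR the members under an unadjusted p of 0.05 were 0 at 0 hpa, 0 at 6 hpa and 5 at 24 hpa, and DESeq2 called 2 at 24 hpa, ncf4 and noxo1.1, and none earlier.

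The changes with time in TRDKO61 and WT61 were also compared directly. No member was called for the difference at 6 hpa over 0 hpa (background 0%), at 24 hpa over 6 hpa (background 0%) or at 24 hpa over 0 hpa (background 0.0363%). By edgeR the members under an unadjusted p of 0.05 were 0, 4 and 2 at these steps, and DESeq2 called 1, nox1, at the last. Over all genes no gene was called at the first or the second step, although 969 of 16307 and 953 of 16320 had an unadjusted p under 0.05. For noxo1.1 at 24 hpa over 6 hpa the difference of the changes was -4.50 (adjusted p = 0.759). The calls made in TRDKO61 and not in WT61 are thus not shown to differ between the genotypes.

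Of 9 other oxidase genes in the table, those called up at 6 hpa over 0 hpa were 2 of 8 tested in TRDKO61, noxo1 (log2 FC 2.62) and hvcn1 (1.24), and 1 of 7 in WT56, duoxa1 (1.36). Of all genes tested, the share called up was 5.34% in TRDKO61, 2.26% in WT61, 5.11% in TRDKO56 and 4.69% in WT56. In WT61 and TRDKO56 edgeR called none of 7 and 8 tested, with 4 in WT61 and 3 in TRDKO56 under an unadjusted p of 0.05, and DESeq2 called none in WT61 and 1 in TRDKO56. The median log2 FC of the list was 0.61 in TRDKO61, 0.67 in WT61, 0.39 in TRDKO56 and 0.24 in WT56. The gene hvcn1 encodes the proton channel that balances the charge moved by the oxidase, and its exons overlap those of tctn1 on the other strand. Among the 5 genes most like cybb of the 13633 compared were spnl (r = 0.983 over 24 libraries) and cxcr3 (0.98), a chemokine receptor of leukocytes.

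The dual oxidase genes differed between groups at 0 hpa. The gene duox1, which encodes an oxidase that releases hydrogen peroxide from epithelia, had 38.0 and 39.2 CPM in TRDKO61, 17.3 and 18.3 CPM in WT61, 12.9 and 12.9 CPM in TRDKO56 and 12.3 and 8.04 CPM in WT56. It was called higher in TRDKO61 than in TRDKO56 (log2 FC 1.57) and than in WT61 (1.11). Its maturation factor duoxa1 had 35.8 and 29.8 CPM in TRDKO61, 13.3 and 16.3 CPM in WT61, 4.96 and 7.47 CPM in TRDKO56 and 4.32 and 2.78 CPM in WT56, and was called in TRDKO61 against TRDKO56 (2.37), WT61 against WT56 (1.94) and TRDKO61 against WT61 (1.14). The adjusted p by edgeR was 5.998e-05 and 0.000494 for duox1 and 2.65e-05, 0.000293 and 0.00156 for duoxa1, in the order given. The libraries of these groups did not overlap for either gene in any of these comparisons. Calls were followed with a library left out for the 8 members only. For these and the other genes of the 2 lists, including noxo1, that stability was not examined.

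Of 31 antioxidant and peroxidase genes in the table, 29 were tested in each comparison. At 6 hpa over 0 hpa 5 rose in TRDKO61, 6 in WT61, 5 in TRDKO56 and 7 in WT56, against 5.34%, 2.26%, 5.11% and 4.69% of all genes tested in these groups, and 1, gclc, fell in WT56 (background 4.51% down). Those that rose in all 4 groups were cat.3, a catalase gene, txnrd1, which encodes thioredoxin reductase, hmox1, which encodes heme oxygenase 1, and the peroxidase genes mpo and epx of granulocytes. At 6 hpa txnrd1 had 38.4 and 33.5 CPM in TRDKO61, 11.4 and 21.3 CPM in WT61, 6.57 and 10.9 CPM in TRDKO56 and 6.07 and 14.7 CPM in WT56. At 0 hpa it had 12.5 and 3.98 CPM in TRDKO61, 2.30 and 0.695 CPM in WT61, 0.372 and 0.255 CPM in TRDKO56 and 0.101 and 0.309 CPM in WT56, where the stage 56 libraries had at most 3 counts each. The log2 FC of hmox1 was 1.38 in TRDKO61, 1.59 in WT61, 1.83 in TRDKO56 and 2.78 in WT56. The genes mpo and epx are also on the list of granulocyte markers. The median log2 FC of the 29 was 0.06 in TRDKO61, 0.03 in WT61, -0.01 in TRDKO56 and 0.15 in WT56, near that of all genes. At 24 hpa against 6 hpa txnrd1 fell in TRDKO61, TRDKO56 and WT56. It had 5.23 and 12.7 CPM in TRDKO61, 1.09 and 0.617 CPM in TRDKO56 and 1.08 and 0.843 CPM in WT56 at 24 hpa. In WT61, where txnrd1 had 2.96 and 11.7 CPM at 24 hpa, none of the 29 was called (background 1.31%). In that group 4 had an unadjusted p under 0.05 by edgeR, and DESeq2 called 1.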

How the data were processed

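RNA of amputated tails was sequenced by the authors from stranded poly-A libraries (2 per condition), and the deposited values are whole-number counts per gene as the authors made them. The submitters' processing notes name STAR 2.7.7a, Subread 2.0.1 with featureCounts, and cutadapt 3.2. The strand option and the handling of shared reads are not given in the sources used here. Of 26531 genes, 26530 symbols were in the UCB_Xtro_10.0 annotation, and 2 genes broken over several lines were rejoined.

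Counts were tested with edgeR 4.0.16 (limma 3.58.1, statmod 1.5.0, R 4.3.3), with filterByExpr, TMM factors and a robust quasi-likelihood fit, two-sided, with Benjamini-Hochberg adjustment over all tested genes. Comparisons of times, and of changes between stages, used the 8 libraries that 1 genotype has at 2 times, stages and genotypes on the 8 libraries of a time, and TRDKO61 with WT61 on their 8 libraries. A call needed an absolute log2 FC over 1 and an adjusted p under 0.05, and for a difference of changes only that adjusted p. At most 3 counts in a library was taken as the floor, and no member was at it in both libraries of a condition (nox1 was in 1, with 2 counts). TPM used exon lengths. The tests were checked on simulated data in which every gene had the same spread. That check does not cover genes with libraries as far apart as those of noxo1.1 and nox1. The alternatives were RLE and upper-quartile factors, no filter, DESeq2 1.42.0, all 24 libraries in 1 fit, only the 4 libraries, a replicate block, and each library left out (96 fits). The precision is set by 2 libraries per condition.

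Named genes are the 8 members, called genes of the 2 oxidase and antioxidant lists, and the 5 genes most like noxo1.1, cybb, nox1 and nox4 (2 or 3 of each are given). In the list of other oxidase parts, 1 gene is not reported here. The members and lists were chosen with earlier results of these data known. Raw reads were not analysed here.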

Additional observations from a re-analysis of the deposited data

Results flagged for a closer look

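Among the members, 2 differences of changes between stages were past the threshold of their own test (edgeR's quasi-likelihood test, adjusted p under 0.05). For noxo1.1 the change at 24 hpa over 6 hpa differed between TRDKO61 and TRDKO56 by -10.29 on the log2 scale (adjusted p = 0.024). Both libraries at 24 hpa lay below both at 6 hpa in TRDKO61, and above both in TRDKO56. For rac2 the change at 24 hpa over 0 hpa differed between WT61 and WT56 by -0.902 on the log2 scale (adjusted p = 0.0226), with a rise in each group. Both calls were lost in 4 of 8 fits with a library left out.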

How the results depend on the processing

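Of 69 calls of members, 43 were kept under every other setting with all libraries, 23 with each library left out in turn, and none changed direction. Some counts of members called moved by more than 1.5 times. With DESeq2 the counts were 2 for TRDKO56 against WT56 at 24 hpa (0 by edgeR), 3 for TRDKO61 against TRDKO56 at 6 hpa (1), 5 for TRDKO61 against WT61 at 6 hpa (3), 1 for WT61 against WT56 at 6 hpa (0), and, for differences of changes, 2 between the TRDKO stages at 24 over 0 hpa (0), 2 at 24 over 6 hpa (1), 1 between TRDKO61 and WT61 at 24 over 0 hpa (0) and 2 between the WT stages at 24 over 0 hpa (1). With all 24 libraries in 1 fit they were 3 for TRDKO61 against TRDKO56 and 5 for TRDKO61 against WT61 at 6 hpa, 0 for WT61 against WT56 at 0 and at 24 hpa and 1 at 6 hpa, 2 for WT61 at 24 over 0 hpa, and, for differences of changes, 1 and 2 between the TRDKO stages at 24 over 0 and 24 over 6 hpa and 0 between the WT stages at 24 over 0 hpa. With no filter on low counts they were 1 for TRDKO61 against TRDKO56 at 24 hpa and 0 at 6 hpa, 3 for TRDKO61 at 24 over 6 hpa, 2 for WT61 at 6 over 0 hpa, and, for differences, 0 between the TRDKO stages at 24 over 6 hpa and 5 between the WT stages at 24 over 0 hpa. With only the 4 libraries of a comparison they were 1 for TRDKO56 against WT56 at 24 hpa, 2 for TRDKO61 against TRDKO56 at 6 hpa, 1 for TRDKO61 against WT61 at 6 hpa and 1 for WT61 at 6 over 0 hpa. With upper-quartile factors the count was 1 for TRDKO61 against TRDKO56 at 24 hpa. Those factors also moved the share of rises among all calls of TRDKO61 at 6 over 0 hpa to 46.9%, against 59.4% with TMM, and the median of all genes by -0.117. Deviations of libraries with the same replicate number correlated at -0.304 to 0.288 over 66 pairs of conditions (median -0.0338), with 11 pairs over 0.1. No pairing common to all conditions was seen, but this check cannot exclude pairing within some of them. With the number as a replicate block 11 calls were lost and 4 gained, and the counts were 2 for TRDKO61 against TRDKO56 at 6 hpa, 1 for TRDKO61 against WT61 at 0 hpa, 3 for TRDKO61 at 24 over 6 hpa, 3 for WT61 at 6 over 0 hpa and 0 for the difference between the TRDKO stages at 24 over 6 hpa. With a library left out, the counts ran from 2 to 5 for TRDKO56, 1 to 4 for TRDKO61 and 2 to 4 for WT61 at 24 over 0 hpa, from 1 to 3 for TRDKO56, 0 to 2 for TRDKO61, 0 to 1 for WT61 and 0 to 1 for WT56 at 24 over 6 hpa, and from 0 to 7 for WT61 and 0 to 5 for WT56 at 6 over 0 hpa. They ran from 0 to 1 at 6 hpa and 1 to 3 at 24 hpa for TRDKO61 against TRDKO56, from 1 to 2 at 0 hpa, 0 to 5 at 6 hpa and 0 to 2 at 24 hpa for TRDKO61 against WT61, and from 0 to 1 at 0 hpa, 0 to 2 at 6 hpa and 0 to 1 at 24 hpa for WT61 against WT56. For differences of changes they ran from 0 to 1 between the TRDKO stages at 24 over 0 and at 24 over 6 hpa, and between the WT stages from 0 to 1 at 6 over 0 and at 24 over 6 hpa and from 0 to 2 at 24 over 0 hpa. A fit with a library left out has 1 library in a condition, which is assumed to vary like the others. With 2 libraries per condition, low counts such as those of noxo1.1 and nox1 leave wide errors, and the causes of these moves were not tested.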

Other observations

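Further genes of the oxidase and antioxidant lists were called at 24 hpa over 0 hpa. The gene duox2, a dual oxidase of epithelia, rose in WT61 and WT56. It had 8.37 and 3.47 CPM at 24 hpa against 0.287 and 0.406 CPM at 0 hpa in WT61. In WT56 it had 2.52 and 1.505 CPM against 0.503 and 0.309 CPM. The 0 hpa libraries held 3 and 7 counts in WT61 and 5 and 1 in WT56, at or near the floor of 3 counts. The gene gpx1, which encodes a glutathione peroxidase, rose by 1.02 in TRDKO61, 1.2 in WT61, 1.28 in TRDKO56 and 1.64 in WT56, and hmox1 by 1.81, 2.01, 2.10 and 2.48 in the same order.

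The 2 libraries of TRDKO61 at 6 hpa differed in different directions between oxidase genes. Replicate 1 was higher for noxo1.1 (261 against 64.8 CPM in replicate 2), noxo1 (259 against 91.6), nox1 (126 against 60.3), cyba (200.2 against 178) and nox4 (4.24 against 3.44). Replicate 2 was higher for cybb (155 against 91.5 CPM in replicate 1) and ncf1 (129.6 against 75.8), as well as for ncf4, rac2, hvcn1, duox1, duox2 and duoxa1. In WT61 at 6 hpa replicate 2 was higher for noxo1.1, nox1, cyba, cybb, ncf1, ncf4 and rac2, with 71.5 against 30.8 CPM for cybb and 21 against 2.99 CPM for noxo1.1.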
